A study of Mus musculus with 18 samples.

Results

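The 6 genes described are Edn1, Shisa3, U90926, Cnr2, Zfp395 and Fam117a, out of 24059 gene symbols counted in mouse bone marrow-derived macrophages. They were chosen by their measured values. Edn1 and Shisa3 were selected on very large rises with lipopolysaccharide (LPS), Cnr2, Zfp395 and Fam117a on very large falls, and U90926 on a large interaction between lipoprotein and cholesterol loading. The LPS values of all 6 genes, and all values of U90926 in the second count table, are therefore given as a description with no test. The values of Edn1, Shisa3 and Zfp395 in the second count table did not enter the choice and were tested.

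RNA-seq was made from macrophages of C57BL/6J mice, grown from marrow in L929-conditioned medium for 7 days, in 18 libraries and 6 groups of 3. The first table holds macrophages given LPS only and untreated macrophages. The second table holds 4 groups that all received LPS. These are cholesterol loading with POPC/cholesterol liposomes followed by reconstituted HDL (rHDL) and LPS, loading followed by LPS, rHDL followed by LPS, and LPS with neither. The rHDL was CSL111, made of APOA1 and soybean phosphatidylcholine, and was given on day 8 for 20 h and washed off before LPS. How much LPS was used, and for how long, is unknown here. No label says that the 3 libraries of a group came from separate cultures or animals, so p-values measure the spread between these libraries, which may be technical. No label names a liposome control without cholesterol.

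LPS is sensed by Toll-like receptor 4, which drives NF-kB, MAP kinase and interferon signalling and replaces much of the resting transcript programme of a macrophage. Among the genes raised are secreted mediators, of which endothelin-1 is the best known vasoconstrictor peptide. Among the genes lowered are receptors of the resting cell. HDL takes up cholesterol from macrophages, and both loss and excess of cholesterol alter how a macrophage answers LPS.

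Edn1 encodes the precursor of endothelin-1, which furin and endothelin-converting enzymes cut to the active peptide. Shisa3 encodes a membrane protein of the Shisa family, whose founding member in Xenopus holds Frizzled and FGF receptors in the endoplasmic reticulum. U90926 is a short spliced transcript, protein-coding in GENCODE M21 and a long non-coding RNA in RefSeq. Cnr2 encodes cannabinoid receptor CB2, a Gi-coupled receptor found mainly on immune cells. Zfp395 encodes a zinc finger protein whose human counterpart ZNF395 binds promoter DNA. Fam117a is also known as C/EBP-induced protein, and its function is little known.

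Each gene was counted on 1 transcript row, and all of its exon bases (100%) belonged to no other row. In mm10, Edn1 lies on the plus strand of chromosome 13 (42301270 to 42307989), with 5 exons and 2344 exon bases. Shisa3 lies on the plus strand of chromosome 5 (67607883 to 67613987), with 2 exons and 3754 bases. U90926 is on the minus strand of the same chromosome (92209895 to 92215408), with 5 exons but 522 bases. Cnr2 is on the plus strand of chromosome 4 (135895404 to 135920210), with 2 exons and 3860 bases. Zfp395 is on the plus strand of chromosome 14 (65358676 to 65398930), with 10 exons and 4229 bases. Fam117a is on the plus strand of chromosome 11 (95337018 to 95381872), with 8 exons and 2317 bases. The counts of U90926 are thus collected over the shortest exon length of the 6.

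RefSeq promoter windows (GRCm38.p6, the build of mm10) were matched for 5 of the 6 genes, each running from 250 bases before to 50 after an annotated start. The windows of the 3 genes that LPS raised and of Fam117a, which it lowered, are shown to let their base composition and motifs be compared. They lie at chr13:42301226-42301525 (plus strand) for Edn1, chr5:67607633-67607932 (plus strand) for Shisa3, chr5:92215359-92215658 (minus strand) for U90926 and chr11:95336768-95337067 (plus strand) for Fam117a. Capitals mark any match, on either strand, to 10 motifs. These were the TATA box TATAAA, the CCAAT box, a kappaB-like motif spelled GGNNTTTCC, the AP-1 motif TGANTCA with its variant TGACTAA, the GATA motif AGATAA, a C/EBP-like motif spelled TTGCNNAA, an IRF-like motif spelled AAANNGAAA, the cyclic AMP element TGACGTCA and the PU.1 motif GAGGAAGT.
Edn1: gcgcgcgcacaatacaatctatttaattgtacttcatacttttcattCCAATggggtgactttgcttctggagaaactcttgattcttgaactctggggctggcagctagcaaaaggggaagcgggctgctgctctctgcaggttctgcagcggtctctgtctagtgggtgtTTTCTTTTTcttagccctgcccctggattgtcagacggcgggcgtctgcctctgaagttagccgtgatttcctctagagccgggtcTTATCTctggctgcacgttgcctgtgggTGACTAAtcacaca
Shisa3: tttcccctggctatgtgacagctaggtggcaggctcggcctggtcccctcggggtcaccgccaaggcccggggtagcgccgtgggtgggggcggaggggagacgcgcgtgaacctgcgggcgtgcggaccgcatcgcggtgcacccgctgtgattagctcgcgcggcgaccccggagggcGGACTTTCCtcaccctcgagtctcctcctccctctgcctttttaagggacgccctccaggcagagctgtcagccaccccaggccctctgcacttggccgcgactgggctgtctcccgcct
U90926: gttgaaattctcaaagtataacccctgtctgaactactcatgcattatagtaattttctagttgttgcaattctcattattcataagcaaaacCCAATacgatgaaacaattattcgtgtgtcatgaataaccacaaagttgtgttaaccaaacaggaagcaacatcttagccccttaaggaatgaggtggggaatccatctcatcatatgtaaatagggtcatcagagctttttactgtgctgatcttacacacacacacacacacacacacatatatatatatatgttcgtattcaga
Fam117a: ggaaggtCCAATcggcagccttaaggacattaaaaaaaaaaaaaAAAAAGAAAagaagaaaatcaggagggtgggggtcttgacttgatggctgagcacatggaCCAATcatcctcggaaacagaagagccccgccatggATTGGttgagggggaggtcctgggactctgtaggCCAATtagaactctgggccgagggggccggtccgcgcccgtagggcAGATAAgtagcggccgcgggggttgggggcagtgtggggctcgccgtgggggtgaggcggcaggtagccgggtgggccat
The Edn1 window held CCAAT 203 bases before the RefSeq start, an IRF-like match beginning 78 bases before it, a GATA match 8 bases after it and TGACTAA 36 bases after it. TGACTAA was found in 2.35% of all 32851 windows, a GATA match in 11.2%, an IRF-like match in 10.6% and a C/EBP-like match in 10.8%. Shisa3 held 1 match, GGACTTTCC, beginning 70 bases before its start, and 5.82% of windows hold such a kappaB-like match. U90926 held CCAAT alone among these motifs, 157 bases before its start, a motif found in 37.4% of windows. Fam117a held 4 CCAAT boxes, 1 of them on the opposite strand, with a GATA and an IRF-like match. The first Cnr2 window (chr4:135894939-135895238) held none of these motifs, and the second, at chr4:135911430-135911729, held a C/EBP-like match and a CCAAT box. TATAAA occurred in none of these windows. Each window ends 50 bases after its annotated start, so a TATA box near a start further downstream would be missed. Base composition differed widely: G and C made up 70.0% of the Shisa3 window, 51.3% of that of Edn1, 58.3% of that of Fam117a and 35.7% of that of U90926, against a median of 52.7% over all windows. The RefSeq start of Edn1 lies inside its deposited row, so part of its window is transcribed in the annotation used for counting. A match is a description of letters and not a binding site.

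The libraries of the first table held 11450243 to 16835472 counts each, and those of the second 9464916 to 15607889. Levels are given as CPM, a gene's counts relative to the TMM-scaled total of its library. The summed level of 8 macrophage markers was 26843 to 31926 CPM in untreated cells and 11580 to 35399 CPM in the LPS groups. T and NK cell markers summed to at most 0.260 CPM in any library and B cell markers to at most 1.31 CPM. Fibroblast and stromal markers summed to 27.8 CPM in 1 library, loading then LPS replicate 3, and to at most 5.83 CPM in the others. The endothelial markers Cdh5, Tie1 and Esam stayed at or under 1.17 CPM in every library. Kdr and Vwf did not, with group means of 15.5 to 144 CPM and 35.9 to 132 CPM. The endothelial list summed to 126 to 213 CPM over all libraries. Tek had no exon base of its own, and Pecam1, Emcn and Egfl7 under 10%, so their listing at 0 says nothing.

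LPS raised Edn1, Shisa3 and U90926 to levels that did not overlap the untreated ones, and lowered Cnr2, Zfp395 and Fam117a in the same way. All 6 genes were in the fit of 9576 genes, of which 72.9% were called at an adjusted p under 0.05 by edgeR. This share is given as background, since the genes were chosen on this contrast or beside it.

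**Figure D1:**
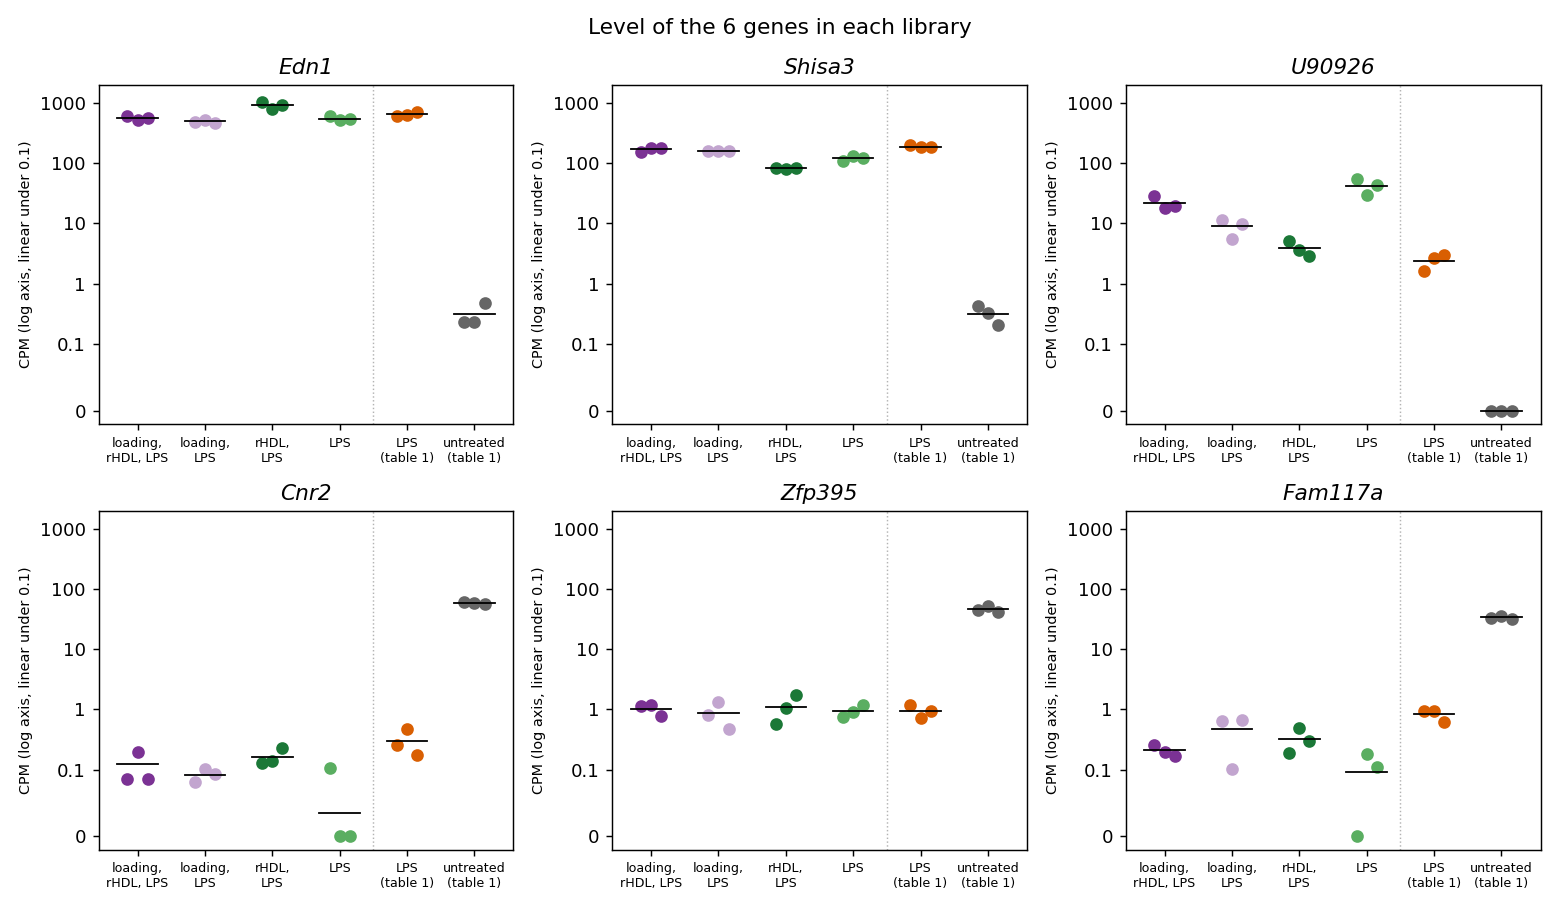
Level of each of the 6 genes in every library, in CPM on a log axis that is linear under 0.1 CPM; each point is 1 library, the bar is the mean of 3, and the dotted line separates the second table from the first. Edn1 sits at 474 CPM or above in every LPS library and under 0.476 CPM in untreated ones, while Cnr2 is at 56.7 CPM or above in untreated libraries only.

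Edn1 had 601, 635 and 702 CPM in the 3 LPS libraries of the first table, against 0.231, 0.233 and 0.476 CPM in untreated cells. These values came from 7149, 7996 and 8109 counts with LPS and from 5, 5 and 7 counts without it. The log2 fold change was 11.06 ± 0.17 (SE), the sixth highest value among the genes fitted. Endothelin-1 message was thus close to the counting limit in resting macrophages and abundant under LPS. The ratio of summed counts, scaled by library size, was 2194, with a 95% counting interval of 1370 to 3767. Intervals of this kind cover counting error only. Endothelial cells are the classical source of endothelin-1, and of the 9 endothelial markers 2 passed the count filter. Kdr had 78.7 ± 14.8 CPM with LPS and 15.5 ± 0.955 CPM without, and Vwf had 98.3 ± 15.1 CPM and 132 ± 13.5 CPM. The whole list summed to 158 to 197 CPM with LPS and 134 to 159 CPM without, while Cdh5 stayed at or under 1.09 CPM. The part of such cells in the Edn1 level was not tested.

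Shisa3 had 198, 184 and 183 CPM in LPS libraries (2353, 2317 and 2119 counts) and 0.417, 0.326 and 0.204 CPM in untreated ones (9, 7 and 3 counts). Its log2 fold change was 9.13 ± 0.14. The ratio of summed counts was 573 (95% counting interval 367 to 952).

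U90926 had 19, 33 and 34 counts in the LPS libraries, or 1.60, 2.62 and 2.94 CPM, and 0 counts in each untreated library. A limit of 3 counts summed over the untreated libraries puts its level with LPS at least 46.0-fold higher. Its level with LPS was low in the first table. Per kilobase of exon, LPS cells held 4.57 ± 1.35 CPM of U90926 (SD, n = 3), 276 ± 21.9 of Edn1 and 50.2 ± 2.19 of Shisa3.

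Cnr2 fell furthest of the 3 lowered genes. It had 3, 6 and 2 counts in LPS libraries (0.252, 0.476 and 0.173 CPM), against 1328, 1236 and 834 counts in untreated ones (61.5, 57.6 and 56.7 CPM). The log2 fold change was -7.55 ± 0.18, the third lowest of all genes fitted. Its summed count was 193-fold lower (95% counting interval 108 to 386). The message of the CB2 receptor was thus near its counting limit with LPS.

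Zfp395 had 1.18, 0.715 and 0.953 CPM in LPS libraries, against 45.2, 51.4 and 41.1 CPM in untreated ones. Its log2 fold change was -5.59 ± 0.17, the thirteenth lowest. Fam117a had 0.925, 0.953 and 0.606 CPM with LPS and 33.5, 36.1 and 31.2 CPM without it, a log2 fold change of -5.32 ± 0.16, the seventeenth lowest. All 3 lowered genes started at moderate levels, between 10.9 and 15.2 CPM per kilobase on average in untreated cells.

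**Figure D2:**
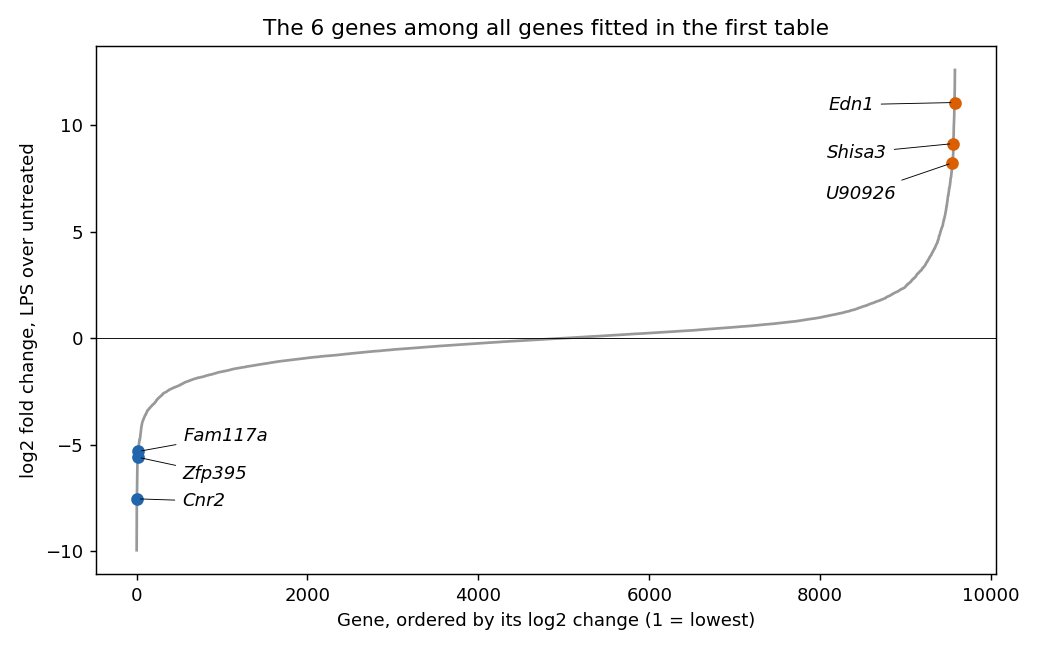
log2 fold change of LPS over untreated for all 9576 genes of the first table, ordered from lowest to highest (grey line), with the 6 genes marked by points. Edn1, Shisa3 and U90926 lie at the upper end, at 11.06, 9.13 and 8.23, and Cnr2, Zfp395 and Fam117a at the lower end. The fitted value of U90926 depends on the prior count, since its untreated libraries are at 0.

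The second table repeats an LPS group, scaled apart from the first, so levels can be set side by side but were not tested. The LPS libraries of the second table held 600, 518 and 535 CPM of Edn1 and 107, 133 and 122 CPM of Shisa3. Zfp395 averaged 0.950 ± 0.230 CPM in the second table and 0.948 ± 0.232 CPM in the first (SD, n = 3 each). U90926 stood apart, at 53.7, 29.3 and 42.9 CPM in the second table's LPS libraries, against 1.60 to 2.94 CPM in the first. On a scale of log2(CPM + 0.5) this was a difference of 3.88, the eighth largest of 8765 genes present in both fits, whose median was -0.18. The 2 tables also differed in the neutrophil marker list, which summed to 20.7 to 23.7 CPM in the second table's LPS group and 227 to 266 CPM in the first's. Mmp8 and Mmp9 carried that sum, at 6.68 and 7.99 CPM in the second table and 80.1 and 164 CPM in the first, while S100a8 went the other way, at 7.41 CPM and 4.15 CPM. Of the other listed genes, Elane and Mpo were at 0 in both LPS groups. Camp and Ngp averaged 0.304 and 0.0718 CPM in the second table's LPS group and 0.491 and 2.05 CPM in the first's. The part of these differences in the level of U90926 was not tested.

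With rHDL before LPS, Edn1 rose further and Shisa3 was lower than with LPS alone. Of the 3 genes tested (Edn1, Shisa3 and Zfp395), 1 was called higher and 1 lower, where 36.5% of 8965 genes were called. Edn1 had 1037, 807 and 917 CPM in rHDL libraries, against 600, 518 and 535 CPM in LPS libraries, and the groups did not overlap. The log2 fold change was 0.74 ± 0.10 (adjusted p = 3.19e-05, edgeR), or 1.67-fold. This was the highest Edn1 level of the 6 groups. In the authors' deposited table for this contrast, Edn1 has a log2 fold change of 0.73, an adjusted p of 1.67e-14 and an RPKM ratio of 1.81.

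Shisa3 had 82.3, 81.4 and 84.2 CPM with rHDL and 107, 133 and 122 CPM with LPS alone. It fell by 0.55 on the log2 scale (SE 0.08, adjusted p = 0.000118, edgeR), the rHDL libraries again lying below every LPS library. Even so, its lowest level under LPS stayed far above its untreated level in the first table, at 81.4 CPM or more against at most 0.417 CPM. Shisa3 is not among the 1609 genes of the authors' deposited table for this contrast, nor are Cnr2, Zfp395 and Fam117a. That list may be cut by size of change, and the rule for entry is unknown here. Shisa3 was 1.47-fold lower here, so its absence does not show that the authors found no fall.

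U90926 had 5.18, 3.69 and 2.86 CPM with rHDL, against 53.7, 29.3 and 42.9 CPM with LPS alone. In counts, these are 82, 53 and 38, against 505, 323 and 394. The log2 change was -3.40 ± 0.29, a 10.6-fold lower level and the sixth lowest of 8965 genes. The authors' deposited table gives a log2 fold change of -3.43 and an RPKM ratio of 0.101. U90926 was chosen on these libraries, so this is a description.

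Macrophage markers moved in the same comparison, in which 36.5% of all genes were called. Of 7 tested, 5 were called lower and 1, Cd68, higher with rHDL, and Cd14 was not called. The list summed to 11580 to 14092 CPM with rHDL and 20971 to 22856 CPM with LPS. Lyz2 carried much of that sum, averaging 6444 CPM with rHDL and 13904 CPM with LPS alone. Csf1r, the M-CSF receptor gene, fell by 0.84 on the log2 scale. Neutrophil markers were called lower in 3 of 3 tested, with log2 changes of -1.78 for S100a8, -1.80 for Mmp8 and -0.97 for Mmp9. In the same list Elane and Mpo were at 0 in both groups, and Camp and Ngp averaged at most 0.304 and 0.0718 CPM. S100a9 was counted on 0.29% of its exon bases, so its 0 says nothing. Both endothelial markers tested were called, in opposite directions. Vwf had 119.6 ± 13.3 CPM with rHDL and 55.8 ± 1.02 CPM with LPS alone, a rise of 1.10 beside that of Edn1, and Kdr had 49.3 ± 7.37 CPM and 117.2 ± 15.2 CPM. The endothelial list summed to 161 to 186 CPM with rHDL and 157 to 186 CPM with LPS. In bulk RNA fewer cells of a kind and less RNA per cell cannot be told apart, and the part of these shifts in the values of Edn1, Shisa3 and U90926 was not tested.

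Zfp395 had 0.569, 1.04 and 1.73 CPM with rHDL, against 0.744, 0.907 and 1.20 CPM with LPS alone, from 7 to 23 counts a library. The log2 difference was 0.20 ± 0.43 (adjusted p = 0.746, edgeR), and the groups overlapped. Cnr2 and Fam117a had too few counts for the fit. Cnr2 summed to 7 counts over the rHDL libraries and 1 over the LPS libraries, a scaled ratio of 4.76 (95% counting interval 0.612 to 215). Fam117a summed to 14 counts with rHDL and 3 with LPS, a ratio of 3.18 (0.886 to 17.2). Cnr2 had 0.126 to 0.226 CPM in the rHDL libraries and 0 to 0.106 CPM in the LPS libraries. Fam117a had 0.190 to 0.487 CPM and 0 to 0.181 CPM, so neither gene overlapped between these groups. These levels rest on at most 7 counts a library. Both intervals include equality, so a rise of these transcripts with rHDL was not established at this depth. For scale, untreated cells of the first table held 58.6 CPM of Cnr2 and 33.6 CPM of Fam117a on average, and no library of the second table exceeded 0.226 and 0.653 CPM of these genes.

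After cholesterol loading, no gene of the 3 tested was called with rHDL by edgeR (0 of 3 at an adjusted p under 0.05, 0 of 3 at an unadjusted p under 0.05, and 0 of 3 by DESeq2). Of all genes 1.02% were called. Edn1 had 619, 514 and 569 CPM in cells loaded and given rHDL, against 491, 519 and 474 CPM in loaded cells, and the groups overlapped. The log2 difference was 0.20 ± 0.10 (adjusted p = 0.448, edgeR). Shisa3 had 154, 180 and 180 CPM with rHDL after loading and 158, 159 and 161 CPM with loading alone, a log2 difference of 0.10 ± 0.08 (adjusted p = 0.694, edgeR). Zfp395 differed by 0.24 ± 0.45 (adjusted p = 0.880, edgeR), at 9 to 13 counts with rHDL and 5 to 13 without.

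U90926 went the other way after loading. It had 28.7, 18.1 and 19.3 CPM in cells loaded and given rHDL, above the 11.3, 5.60 and 9.89 CPM of loaded cells. The log2 change was 1.28 ± 0.28, or 2.44-fold, and the tenth highest among the 8965 genes. The authors' deposited table, of 47 genes, lists U90926 with a log2 fold change of 1.30 and an RPKM ratio of 2.37. U90926 was chosen on these libraries, so these values too are a description. The other 5 genes are not in that table, which may be cut by size of change too.

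The difference between the rHDL effects, that after loading minus that without it, was tested in the same fit. Of the 3 genes tested, 1 was called higher and 1 lower, against 30.2% of all genes. For Edn1 it was -0.54 ± 0.13 on the log2 scale (adjusted p = 0.00753, edgeR). For Shisa3 it was 0.65 ± 0.12 (adjusted p = 0.000775, edgeR). Loading thus went with a smaller rHDL difference in both genes, one a rise and the other a fall. Both endothelial markers tested were called here too, Vwf at -1.53 and Kdr at 0.91. Zfp395 gave 0.04 ± 0.62 (adjusted p = 0.970, edgeR). U90926, chosen on this quantity, gave 4.68 ± 0.40, the second highest of 8965.

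**Figure D3:**
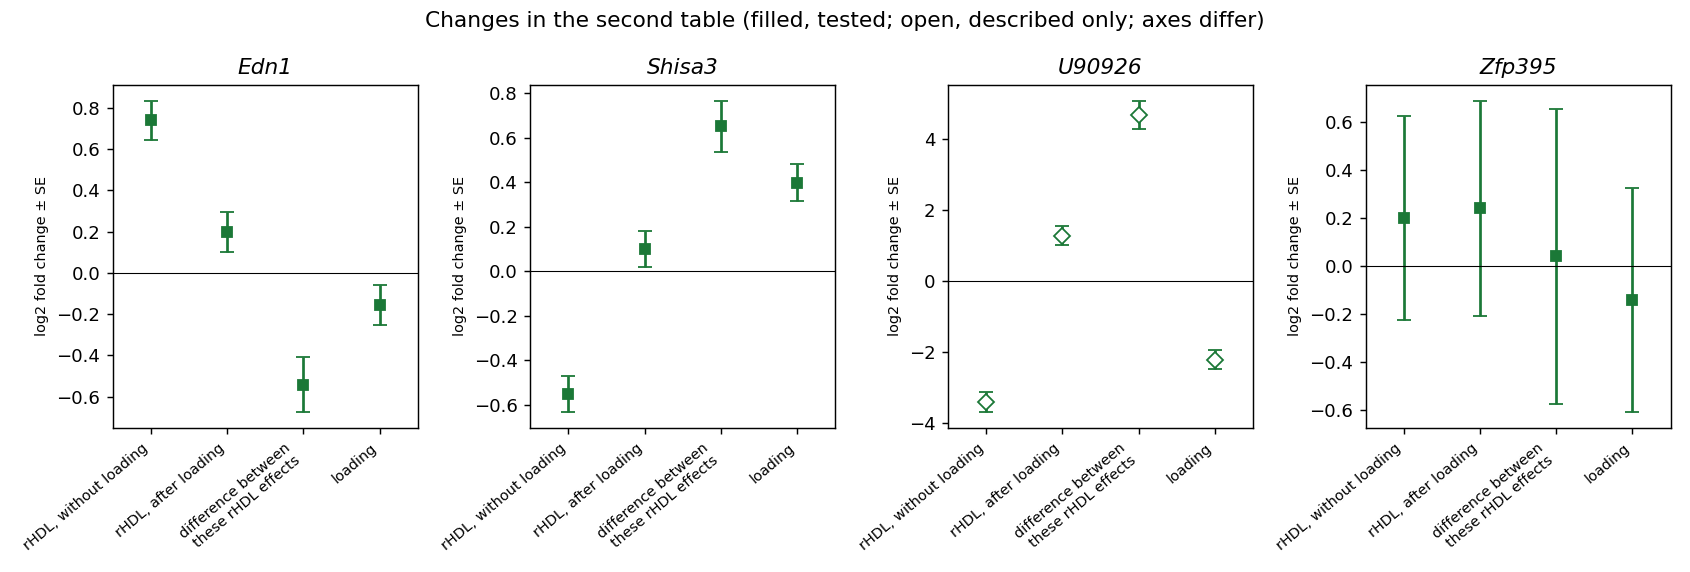
log2 fold change with its SE for Edn1, Shisa3, U90926 and Zfp395 in the 4 comparisons of the second table, with a separate vertical axis per gene; filled squares were tested and open diamonds are descriptions. Edn1 and Shisa3 change in opposite directions with rHDL (0.74 and -0.55) and lie near 0 after loading, while U90926 lies at -3.40 without loading and 1.28 after it.

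Loading alone was set against LPS alone with the same LPS libraries as the rHDL comparison, so the 2 comparisons share their controls. Of the 3 genes tested 1 was called, Shisa3, against 8.57% of all genes. It had 158, 159 and 161 CPM in loaded cells and 107, 133 and 122 CPM in cells with LPS alone, a rise of 0.40 ± 0.08 on the log2 scale (adjusted p = 0.00850, edgeR). The loaded libraries agreed closely with each other and lay above all 3 LPS libraries. Edn1 had 491, 519 and 474 CPM after loading, against 600, 518 and 535 CPM, a log2 difference of -0.16 ± 0.10 (adjusted p = 0.349, edgeR). Zfp395 gave -0.14 ± 0.47 (adjusted p = 0.894, edgeR). U90926 had 11.3, 5.60 and 9.89 CPM after loading and 53.7, 29.3 and 42.9 CPM without it, a described log2 change of -2.21 ± 0.27. Without the stromal-rich library, loading then LPS replicate 3, the Shisa3 difference was 0.39 and that of U90926 -2.27. Fam117a had 8, 1 and 7 counts after loading and 0, 2 and 1 with LPS alone. Its summed ratio of 4.81 had a 95% counting interval of 1.38 to 25.8, but the libraries of the 2 groups overlapped.

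The order of mean levels over the 6 groups differed by gene. For Edn1 it ran rHDL then LPS, LPS of the first table, loading then rHDL then LPS, LPS, loading then LPS and untreated. Only the first and the last step were free of overlap between neighbouring groups. For Shisa3 the LPS group of the first table was highest and only the step between loading then rHDL then LPS and loading then LPS overlapped. For U90926 the LPS group of the second table came first, followed by loading then rHDL then LPS, loading then LPS, rHDL then LPS, LPS of the first table and untreated. There the groups overlapped only between rHDL then LPS and LPS of the first table. For Cnr2, Zfp395 and Fam117a, which were chosen for falls with LPS, untreated cells were highest without overlap. Every later step overlapped.

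Over the 12 libraries of the second table, the genes whose log2 CPM was most like that of each of the 4 genes with enough counts were taken by Pearson r. The libraries share 4 groups, so these r values describe group patterns and carry no p. Edn1 was most like Ccl3 (r = 0.970), a chemokine gene, followed by Fabp3 (0.967) and Camk1 (0.962). Ccl3 averaged 3690 ± 406 CPM with loading and rHDL, 3396 ± 150 CPM with loading, 7530 ± 475 CPM with rHDL and 3595 ± 52.6 CPM with LPS alone. The genes most like Shisa3 were Abcc3 (0.980), a transporter gene, Appl1 (0.965) and Trf (0.964), the transferrin gene. Abcc3 averaged 56.6 ± 7.52, 57.5 ± 3.58, 24.8 ± 0.829 and 42.4 ± 2.23 CPM in the same 4 groups. U90926 was most like Il19 (0.985), which encodes a cytokine of the interleukin-10 family, and next Ywhag (0.980) and Ppp2ca (0.977). Pearson r takes no account of the size of a change. With rHDL the log2 change was -0.25 for Ywhag and -0.17 for Ppp2ca, against -2.54 for Il19 and -3.40 for U90926. Il19 averaged 43.4 ± 9.66 CPM with loading and rHDL, 24.7 ± 5.60 CPM with loading, 13.1 ± 4.18 CPM with rHDL and 77.0 ± 14.5 CPM with LPS alone. For Zfp395 the highest r was 0.747 (Zfp318), at 11.4 counts a library on average. Likeness under rHDL did not extend to LPS for every gene: Camk1 had a log2 change of -0.62 and Abcc3 of -1.07 with LPS over untreated.

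Other endothelin genes tested with LPS moved by 0.42 to 0.71 on the log2 scale. Of 8 other endothelin genes, 4 were counted on at least 10% of their exon bases. With LPS, 3 of 3 tested were called higher by edgeR and 2 of 3 by DESeq2 (median log2 change 0.45, against -0.05 for all genes), where edgeR called 72.9% of all genes. Ece1, an endothelin-converting enzyme, had 23.0 ± 3.39 CPM with LPS and 16.8 ± 0.328 CPM without (log2 0.45 ± 0.11, adjusted p = 0.00421, edgeR). Under scaling by library totals this turned to -0.26, and those of Ece2 and Furin also turned. Ece2 and Furin were counted on 3.44% and 4.09% of their exon bases. With rHDL before LPS, 0 of 4 were called by edgeR, 0 of 4 by DESeq2 and 0 of 4 at an unadjusted p under 0.05. The receptor gene Ednra was not in either fit and Ednrb only in the second, on 3.19% of its bases.

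Of 16 other cannabinoid genes 12 were counted on at least 10% of their exon bases and 7 were tested. With LPS 5 were called lower and 1 higher (median log2 change -0.51, against -0.05 for all genes), where 72.9% of all genes were called. Of the 4 tested genes for enzymes that make endocannabinoids, Dagla, Daglb and Napepld were called lower. Gde1, which also acts in making anandamide, was not called, at 73.7 ± 6.85 CPM with LPS and 79.0 ± 6.98 CPM without (log2 -0.10 ± 0.09, adjusted p = 0.361, edgeR). Dagla, a diacylglycerol lipase that makes 2-arachidonoylglycerol, had 5.19 ± 1.42 CPM with LPS and 39.7 ± 3.18 CPM without (log2 -2.94 ± 0.15, adjusted p = 2.05e-08, edgeR). Daglb, its relative, had 215 ± 6.29 CPM and 473 ± 69.9 CPM in the same groups, and Napepld, which makes anandamide, had 2.75 ± 0.990 CPM and 12.1 ± 0.280 CPM. Gpr18, a receptor for N-arachidonoylglycine, rose to 15.9 ± 2.96 CPM with LPS, against 3.32 ± 0.140 CPM without (log2 2.25 ± 0.16, adjusted p = 2.81e-07, edgeR). With rHDL before LPS 4 of the 7 were called higher and 1 lower, against 36.5% of all genes called. Gpr18 fell by 1.93 on the log2 scale (SE 0.19, adjusted p = 3.11e-06, edgeR), while Dagla rose by 1.08 ± 0.27 (adjusted p = 0.00624, edgeR). After loading Abhd12, a monoacylglycerol hydrolase, was the 1 of 7 called (0.32 ± 0.06, adjusted p = 0.0155, edgeR). The calls with LPS held their direction under scaling by library totals.

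The next list held Wnt and FGF receptor genes, the class that the Shisa family acts on in Xenopus, with the intracellular Wnt pathway genes Ctnnb1, Axin1 and Axin2. Of its 19 genes 5 were tested with LPS, with 2 called higher and 2 lower, where 72.9% of all genes were called. The 1 not called was Ctnnb1 (adjusted p = 0.744, edgeR), counted on 2.84% of its exon bases. Fzd1, a Frizzled receptor, had 570 ± 46.3 CPM with LPS and 44.5 ± 10.5 CPM without (log2 3.68 ± 0.15, adjusted p = 3.05e-09, edgeR). Fzd7 rose by 1.16 ± 0.10, while the co-receptor genes Lrp5 and Lrp6 fell by 1.24 and 0.81 on the log2 scale. With rHDL, 2 of 4 were called, both lower, against 36.5% of all genes called. Neither share stands far from its background. Fzd1 had 169 ± 8.53 CPM with rHDL and 291 ± 30.2 CPM with LPS alone, so it was lower beside Shisa3 there, and the difference between rHDL effects was 0.94 ± 0.11 for it (adjusted p = 3.74e-05, edgeR).

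**Figure D4:**
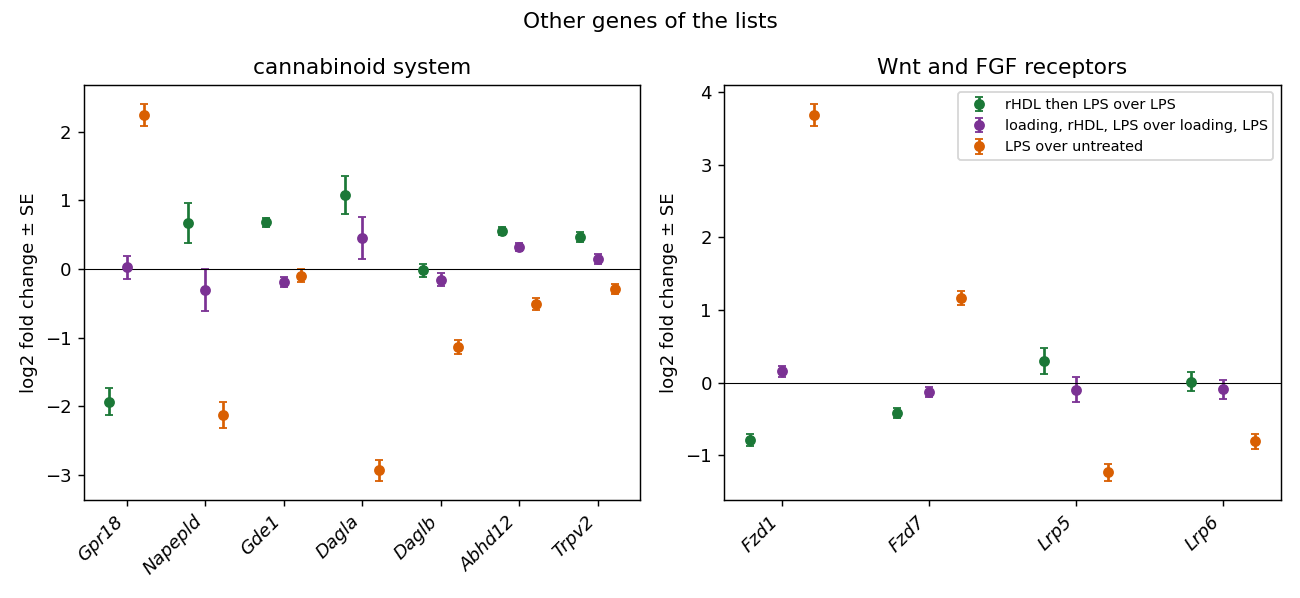
log2 fold change with its SE of the tested cannabinoid genes (left) and Wnt and FGF receptor genes (right) with at least 10% own exon bases, for rHDL then LPS over LPS (green), the same after loading (purple) and LPS over untreated (orange). Gpr18 lies at 2.25 with LPS and at -1.93 with rHDL, and Fzd1 at 3.68 and -0.79.

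Of 6 C/EBP genes 3 were tested with LPS and all 3 were called, where 72.9% of all genes were called. The genes Cebpa and Cebpb were not tested, having under 10% of their exon bases to themselves. Cebpd had 440 ± 73.0 CPM with LPS and 73.2 ± 11.1 CPM without (log2 2.59 ± 0.14, adjusted p = 3.04e-08, edgeR). Cebpz fell by 0.36 on the log2 scale and Cebpg rose by 0.25, although scaling by library totals turned the Cebpg value to -0.46. Of 8 relatives of the 6 genes found in the files, 3 were tested, and 2 were called lower with LPS, close to the 72.9% of all genes called. The 1 not called was Shisa5, counted on 2.65% of its exon bases. Zfp704, a paralogue of Zfp395, had 20.7 ± 6.53 CPM with LPS and 120 ± 7.15 CPM without, and Fam117b had 26.6 ± 1.48 CPM and 56.4 ± 4.86 CPM. Zfp704 also rose with rHDL by 0.94 ± 0.17 (adjusted p = 0.000562, edgeR), a comparison in which Zfp395 was not called.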

How the data were processed

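RNA-seq gave 18 libraries in 6 groups. Per the submitters' processing notes, the authors used cutadapt, HISAT2, Subread with featureCounts, and DESeq2, with the genome mm10. Their versions and strand setting are unknown here, so reads of antisense partners cannot be told apart. Both deposited tables of counts give unscaled read counts in 32850 transcript rows. All 6696 rows without an exon base of their own were at 0, so reads shared between rows are missing. The deposited comparison tables give the authors' log2 fold changes, adjusted p-values and ratios of RPKM. The row length, another deposited value, is the sum of exon bases.

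Counts were summed per symbol and fitted with edgeR 4.0.16 in R 4.3.3, the 2 tables apart. Genes were kept by filterByExpr (minimum count 10), scaled by TMM and tested with the quasi-likelihood F test, with Benjamini-Hochberg adjustment over all genes and calls at an adjusted p under 0.05. A value after ± is the SE of a log2 change or the SD of a CPM (n = 3). Counting intervals are exact at 95%. DESeq2 1.42.0, its size factors, library totals, other count filters, a block on replicate number, the row with the most counts, groups fitted alone and each library left out were the alternatives.

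The 6 genes and all lists were chosen with earlier results of these data known. Named genes are the 6, list members, and the 3 genes most like each of the 6 that averaged at least 10 counts in the second table. Likeness is Pearson r of log2 CPM (prior count 2) among genes with a mean of at least 3, predicted genes and clones passed over. The list genes printed were picked after their values were seen. The fits were checked on simulated counts.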

Additional observations from a re-analysis of the deposited data

Results flagged for a closer look

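3 results were flagged because the effect of rHDL differed between loaded and unloaded macrophages. For Edn1 the rHDL effect after loading minus that without it was -0.54 on the log2 scale (adjusted p = 0.00753, edgeR), from 0.20 after loading and 0.74 without it. For Shisa3 it was 0.65 (adjusted p = 0.000775, edgeR), from 0.10 after loading and -0.55 without it. Neither the value of Edn1 nor that of Shisa3 after loading passed the test by itself. For U90926 it was 4.68, with every library higher with rHDL after loading and every library lower with rHDL without loading. The U90926 difference was not tested, since the gene was chosen on it.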

How the results depend on the processing

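Edn1 and Shisa3 kept their direction and their side of the threshold in all 4 comparisons of the second table under every alternative run. Edn1 with rHDL ranged over 0.63 to 0.85 on the log2 scale (adjusted p up to 0.000408) and its difference between rHDL effects over -0.72 to -0.43 (up to 0.0272). Shisa3 with rHDL ranged over -0.63 to -0.44 (adjusted p up to 0.00294), its difference over 0.49 to 0.74 (up to 0.0159) and its loading value over 0.32 to 0.47 (up to 0.0480). U90926 kept its described directions. Zfp395 was not called under any alternative and its sign was not stable. Its difference between rHDL effects was -0.13 with library totals, and ranged over -0.28 to 0.48 with single libraries left out. Its other leave-out ranges were -0.24 to 0.52 with rHDL, -0.048 to 0.63 with rHDL after loading and -0.54 to 0.15 with loading. Without the low count filter Cnr2 and Fam117a entered the second table's fit, with adjusted p of 0.0966 or more.

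When libraries were scaled by their totals alone, the median log2 change with LPS became -0.77, against -0.05, the split of calls to 1533 higher and 6638 lower, against 3380 and 3605, and the values of Edn1 and Cnr2 to 10.35 and -8.25. With rHDL the split became 2507 and 1273, against 1621 and 1654, for the difference 1016 and 2124, against 1432 and 1272, for loading 626 and 254, against 358 and 410, and for rHDL after loading 25 and 67, against 38 and 53. The count for rHDL after loading, 91, was 161 with DESeq2, 176 without the count filter and 42 with only the groups compared, and loading, 768, gave 1216 with only the groups compared. Leaving out single libraries gave 30 to 123 for rHDL after loading and 350 to 1066 for loading. For rHDL after loading the counts fell to 46, 30 and 35 without loading then LPS replicates 1, 2 and 3 and to 55 and 56 without loading then rHDL then LPS replicates 2 and 3. For loading they fell to 366 and 379 without LPS replicates 1 and 3 and to 477, 396 and 350 without loading then LPS replicates 1, 2 and 3. The cause was not tested.

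With the replicate number as a block, rHDL after loading gave 486 calls and loading 1651, and the calls for Edn1, Shisa3 and Zfp395 did not change. Same-numbered libraries correlated between -0.08 and 0.07 in the first table and -0.03 and 0.44 in the second, where 28 of 36 comparisons were highest with the same number. This is a hint from the data that the second table's numbers pair libraries. No label says what a number marks, and 13 of 18 same-numbered pairs, not all, passed 0.1, so the block was not made the main fit. At most 23 counts a library limit Zfp395, Cnr2 and Fam117a in the second table.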
